A study of Saccharomyces cerevisiae with 16 samples.

Results

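The hexose transporters Hxt1 to Hxt7 carry glucose across the plasma membrane of budding yeast, *Saccharomyces cerevisiae*, and the glucose sensors Snf3 and Rgt2 are relatives of these transporters that signal instead of transporting. The 9 genes were taken by name, *HXT1* to *HXT7*, *SNF3* and *RGT2*, and each had a row in both deposited tables, which list 5330 genes at 37 °C and 5190 at 15 °C (5338 in all). Sequencing covered mRNA and its ribosome-protected fragments (footprints) in wild-type *TIF3* cells (strain FJZ46) and in *tif3*Δ cells (strain FJZ52), which lack the translation initiation factor eIF4B. Cells grew in synthetic complete medium to an OD600 of about 0.7, were shifted to 37 °C (experiment 1) or 15 °C (experiment 2), and all received cycloheximide, which stalls ribosomes, at 100 µg/ml for 2 min before harvest. The carbon source, the time at each temperature and any further strain alleles are not given in the sources used here. The study asked which mRNAs depend on eIF4B for their translation.

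The 16 libraries form 8 groups of 2, for each temperature, genotype and library type. Each table gives a gene a single log2 normalised value for a group of 2 libraries. No difference therefore has a replicate error or a test, and "higher" and "lower" compare these single values. Values are averages over a culture, and fewer cells with an mRNA and less mRNA per cell cannot be told apart. Judged by the spacing of the lowest values, wild type had about 17500000 footprints at 37 °C and 5400000 at 15 °C, and *tif3*Δ about 11900000 and 1830000. For mRNA the depth is unknown. The deletion cells still showed *TIF3* mRNA at log2 3.1 (37 °C) and 6.4 (15 °C), where wild type had 11.2 and 10.6, so more of its signal remained at 15 °C, and the part of this in the results below was not tested.

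Yeast matches its set of transporters to the glucose outside the cell. Rgt2 responds to high glucose and Snf3 to low glucose; through casein kinase and the ubiquitin ligase subunit Grr1 they cause the loss of Mth1 and Std1, the corepressors that hold the repressor Rgt1 on *HXT* promoters. Hxt1 and Hxt3 are low-affinity carriers for plentiful glucose. Hxt2, Hxt4, Hxt6 and Hxt7 have higher affinity and serve cells with little glucose, and the repressor Mig1 keeps several of their genes low when glucose is high. Hxt5 is best known from slowly growing and starved cells.

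Several of these genes are so alike that short reads cannot always be assigned to one of them. In the RefSeq R64 assembly, which is not the build named in the submitters' notes, the coding sequences of *HXT6* and *HXT7*, each of 1713 nt, differed at 3 bases and were 99.8% identical. Of the 1686 windows of 28 nt in each, a length near that of a footprint, 1619 (96.0%) occurred elsewhere in the genome, each of them present in the partner gene, and 67 were unique. In *HXT3* 24.6% of the windows were not unique, 363 of them shared with *HXT7*, followed by *HXT1* at 10.6%, *HXT4* at 8.86%, *HXT5* at 6.05% and *HXT2* at 0.750%. No window of *SNF3* or *RGT2* was found elsewhere. The sources used here do not say how the authors assigned reads with more than 1 match, and *HXT6* and *HXT7* are read below as 1 joint measurement. Their group values lay within 0.1 log2 units of each other in all 8 groups.

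The 7 transporter genes all had more footprints in *tif3*Δ than in wild type at 15 °C (50.5% of all genes were on that side), with a median log2 difference of 1.38 (2.60-fold) and a range of 1.17 to 1.63. Each was at least 2-fold higher, a size reached by 4.07% of the 5012 genes past the filter, and the median of those genes was 0.01. The filter asked that a gene's normalised value, averaged over the genotypes, reach 10 in footprints and in mRNA, and all 9 members passed it at both temperatures. In mRNA all 7 were also higher, as 50.4% of all genes were, with a median of 0.81 (1.75-fold) against 0.003 for all genes. By 1.5-fold or more 6 of the 7 were higher, a size that 6.78% of all genes passed upwards and 5.85% downwards. Translational efficiency (TE), the footprint value over the mRNA value, was higher for 6 of the 7 and for 49.7% of all genes, with a median log2 difference of 0.56 against -0.003. Counted as 1 gene, *HXT6* and *HXT7* leave 6 transporters, 6 of them higher in footprints, 5 at least 1.5-fold higher in mRNA and 5 higher in TE. At 37 °C the footprint median was -0.18 and the TE difference below 0 for all 7 (6 of 6 when joined), as for 47.4% of all genes. For genes of their coding lengths the trend over all genes stood at -0.12 to -0.16 in TE. Less that trend, the 7 ran from -0.93 to -0.07. In mRNA 5 of the 7 (5 of 6 when joined) were higher at 37 °C, as were 2543 of the 5197 genes past the filter there. The median was 0.24 against -0.01 for all genes. Only 1 of the 7, *HXT4*, was higher by 1.5-fold or more, as 8.77% of all genes were.

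**Figure D1:**
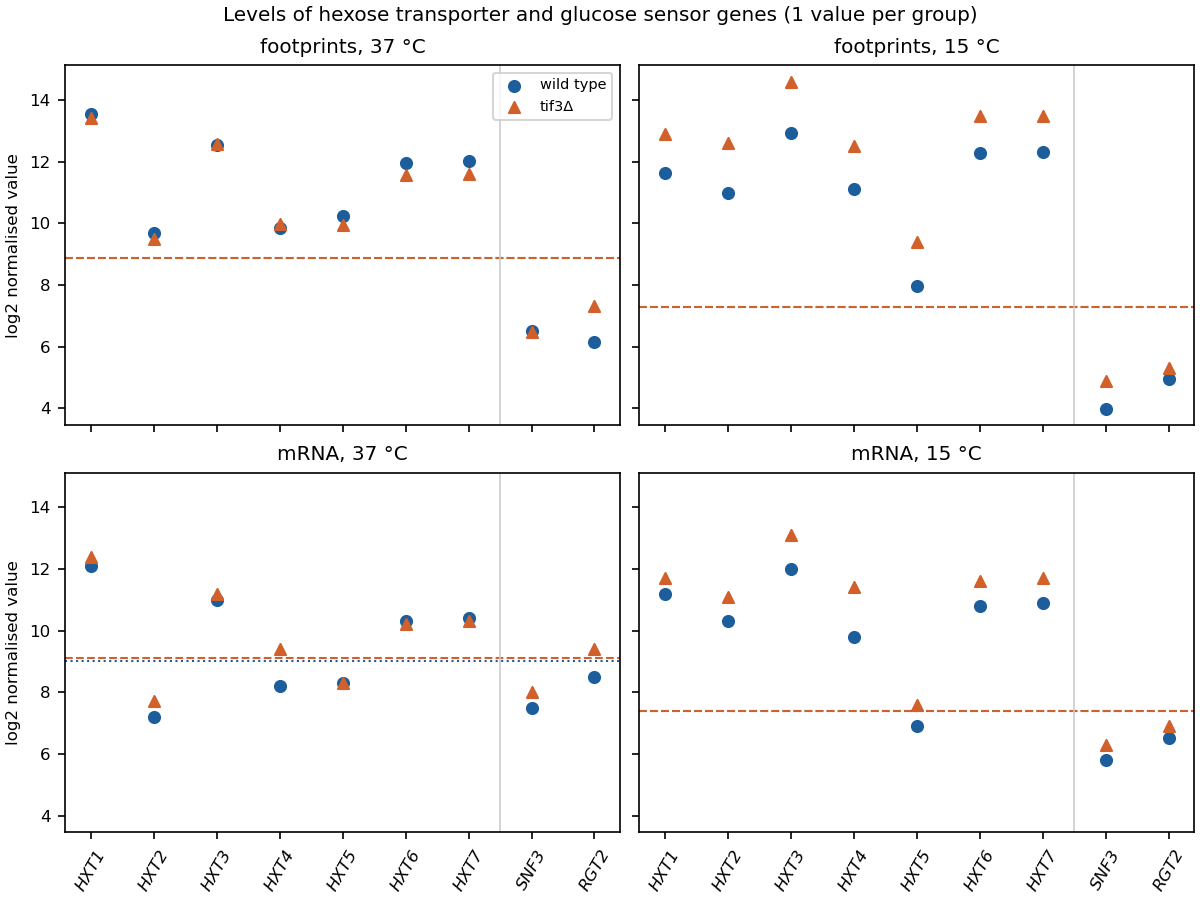
Log2 normalised values (y axis) of the 9 genes (x axis) in footprints (top) and mRNA (bottom) at 37 °C (left) and 15 °C (right), with circles for wild type, triangles for *tif3*Δ and lines for the median of the genes past the filter (dotted, wild type; dashed, *tif3*Δ). At 15 °C every triangle stands above its circle in both library types, and the sensors lie below the median lines in each 15 °C panel.

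The low-affinity carriers included the most abundant single gene of the family at each temperature, *HXT1* at 37 °C and *HXT3* at 15 °C. *HXT1* (YHR094C) footprints at 15 °C stood at log2 11.63 in wild type and 12.9 in *tif3*Δ, and its mRNA at 11.2 and 11.7. In the authors' deposited table these are 2.41-fold more footprints and 1.42-fold more mRNA. *HXT3* (YDR345C) footprints stood at 12.94 and 14.6 and its mRNA at 12 and 13.1, the highest level of a single gene of the family in all 4 groups at 15 °C. In wild-type footprints *HXT6* and *HXT7* together stood above it, at 39.3% against 30.7% of the summed transporter values per kilobase. The authors' deposited table gives *HXT3* 3.09-fold more footprints, the largest difference of the 9 genes, and 2.09-fold more mRNA. Behind these values lie about 4356 footprints of *HXT1* in wild type against 3495 in *tif3*Δ, and about 10801 against 11109 of *HXT3*. The 95% intervals from exact binomial limits, which cover counting error only, ran from 2.30-fold to 2.52-fold for *HXT1* and from 3.01-fold to 3.17-fold for *HXT3*. That of *HXT2*, 2.85-fold to 3.17-fold, overlapped that of *HXT3*, so these 2 cannot be ranked.

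At 37 °C the same carriers differed little between the genotypes. Footprints of *HXT1* stood at 13.55 in wild type and 13.42 in *tif3*Δ, and its mRNA at 12.1 and 12.4. Those of *HXT3* stood at 12.53 and 12.59, with mRNA at 11 and 11.2. In the authors' deposited table TE was 1.30-fold lower for *HXT1* and 1.16-fold lower for *HXT3*, below the 1.5-fold used here to call genes apart.

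*HXT2* (YMR011W) and *HXT4* (YHR092C), carriers for low glucose, had similar footprint differences at 15 °C and unlike mRNA differences. *HXT2* footprints stood at log2 10.98 in wild type and 12.6 in *tif3*Δ, with mRNA at 10.3 and 11.1. This is 3.01-fold more footprints and 1.74-fold more mRNA in the authors' deposited table. With 1.73-fold *HXT2* had the largest TE difference of the family at 15 °C, close to the 1.69-fold of *HXT1*. *HXT4* footprints stood at 11.11 and 12.5, with mRNA at 9.8 and 11.4. Its 2.65-fold more footprints came with 2.91-fold more mRNA in the authors' deposited table, so *HXT4* alone of the transporters had a TE difference below 0 at 15 °C, of -0.13.

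At 37 °C *HXT4* mRNA was again higher in *tif3*Δ, at 9.4 against 8.2, while its footprints stood at 9.98 against 9.85. In the authors' deposited table the mRNA was 2.31-fold higher and TE 2.11-fold lower, which put *HXT4* at percentile 2.35 of the TE differences of all genes. *HXT2* at 37 °C stood at 7.7 against 7.2 in mRNA and at 9.50 against 9.68 in footprints. The authors' deposited table gives it 1.55-fold lower TE. These were the 2 members with TE at least 1.5-fold lower at 37 °C, where 11.1% of all genes were. Across the whole 37 °C table TE differences were lower the longer the coding sequence, and for genes as long as these the trend stood at -0.15 (*HXT4*) and -0.12 (*HXT2*). With the trend taken off, *HXT4* was left at -0.93 and *HXT2* at -0.51, which is no longer 1.5-fold.

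The joint measurement of the high-affinity carriers *HXT6* (YDR343C) and *HXT7* (YDR342C) followed the family at 15 °C. Footprints of *HXT7* stood at log2 12.33 in wild type and 13.5 in *tif3*Δ, and its mRNA at 10.9 and 11.7, with *HXT6* at 12.28 and 13.5 and at 10.8 and 11.6. The authors' deposited table gives 2.26-fold more footprints of *HXT7* and 2.28-fold more of *HXT6*, the smallest differences among the transporters. The authors' deposited table gives TE higher by 1.28-fold and 1.30-fold. At 37 °C their footprints were lower in *tif3*Δ, *HXT7* at 11.61 against 12.01 and *HXT6* at 11.58 against 11.96, with mRNA at 10.3 against 10.4 and at 10.2 against 10.3. In the authors' deposited table these are 1.32-fold and 1.30-fold fewer footprints, the largest decreases of the family, still under 1.5-fold.

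*HXT5* (YHR096C) was the scarcest of the 7 transporters at 15 °C. Its footprints stood at log2 7.98 in wild type and 9.4 in *tif3*Δ, about 347 and 301 footprints, and its mRNA at 6.9 and 7.6. The authors' deposited table gives 2.60-fold more footprints (95% counting interval 2.22-fold to 3.05-fold), 1.68-fold more mRNA and 1.55-fold higher TE. *HXT1*, *HXT2* and *HXT5* were the 3 members with TE at least 1.5-fold higher at 15 °C, where 13.9% of all genes were higher by that size and 18.9% lower. At 37 °C footprints of *HXT5* stood at 10.23 and 9.94 and its mRNA at 8.3 in both genotypes.

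**Figure D2:**
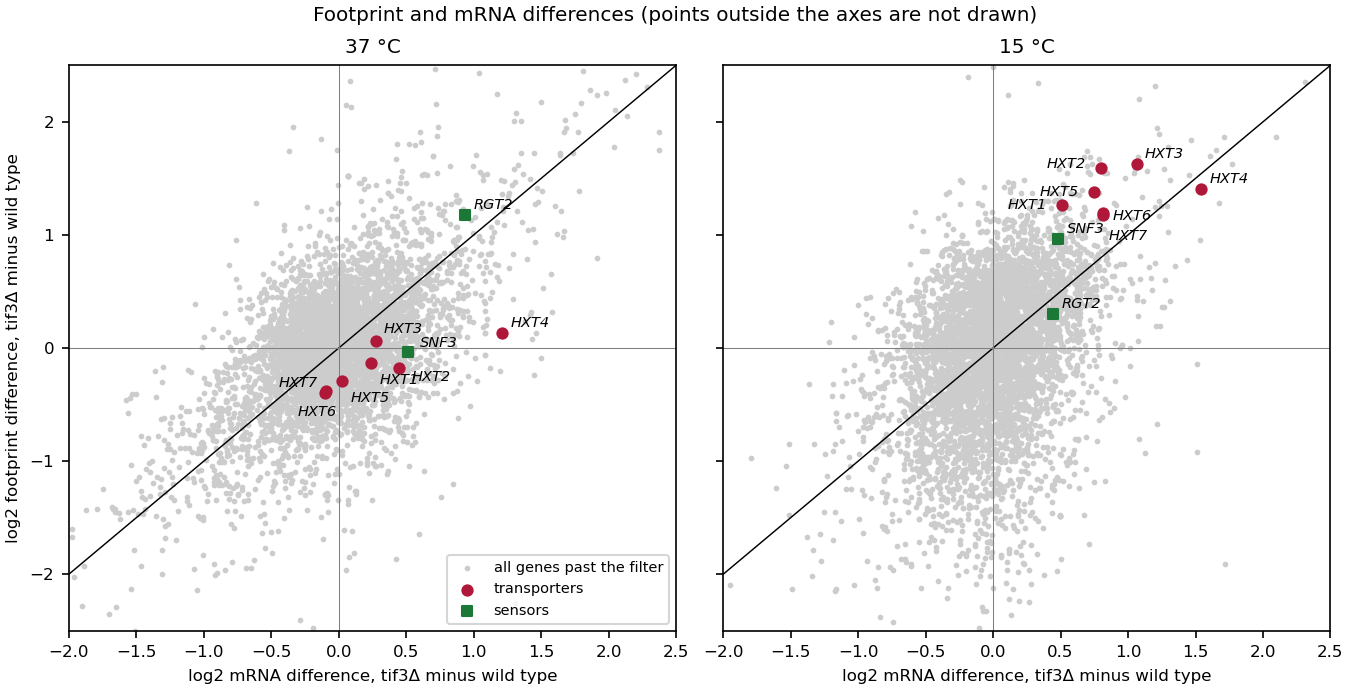
Log2 footprint difference (y axis) against log2 mRNA difference (x axis), *tif3*Δ minus wild type, from the authors' table at 37 °C (left) and 15 °C (right), with all genes past the filter in grey, transporters as red circles and sensors as green squares; on the diagonal TE does not differ. At 15 °C the 7 transporters lie together at footprint differences of 1.17 to 1.63, above the diagonal except *HXT4*, and at 37 °C they lie below it.

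Per kilobase, the sensor genes had lower footprint values than every transporter in all 4 footprint groups. In wild-type mRNA per kilobase at 37 °C *RGT2*, at 158 normalised units, stood between *HXT4* (169.9) and *HXT2* (90.4). *SNF3* (YDL194W) and *RGT2* (YDL138W) stood at -2.38 and -2.72 log2 units relative to the median gene in wild-type footprints at 37 °C, and at -3.31 and -2.33 at 15 °C. Per kilobase of coding sequence, *SNF3* lay between percentiles 0.76 and 9.10 of the genes past the filter over the 8 groups. At 15 °C *SNF3* footprints stood at log2 3.98 in wild type and 4.9 in *tif3*Δ, only about 22 and 14 footprints. The authors' deposited table gives 1.95-fold more footprints and 1.40-fold more mRNA, and the 95% counting interval of the footprint fold, 0.904 to 3.91, includes no difference. *RGT2* footprints stood at 4.96 and 5.3, about 43 and 18 footprints, a fold of 1.23 with a counting interval of 0.682 to 2.23. Both intervals include fewer as well as more footprints in *tif3*Δ. That of *SNF3* covers the folds of all 7 transporters, and that of *RGT2* ends just under the lowest of them, 2.26.

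At 37 °C the sensors were measured more deeply. *RGT2* footprints stood at 6.16 in wild type and 7.33 in *tif3*Δ, about 97 and 149 footprints, with mRNA at 8.5 and 9.4. The authors' deposited table gives 2.26-fold more footprints (95% counting interval 1.74-fold to 2.95-fold) and 1.91-fold more mRNA. *RGT2* was the only 1 of the 9 genes with footprints at least 1.5-fold apart at 37 °C, where 12.1% of all genes were higher by that size and 13.2% lower. With *HXT4* it was also 1 of the 2 members with mRNA at least 1.5-fold higher, as 8.77% of all genes were, with 8.87% lower. *SNF3* stood at 6.5 and 6.47 in footprints and at 7.5 and 8.0 in mRNA, and the authors' deposited table gives 1.46-fold lower TE. The sequence relation of the sensors (68.2% identical bases) was closer than that of either to a transporter (61.9% to 65.9%).

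TE values of the transporters stood in the upper part of all genes in each genotype and temperature, and those of the sensors in the lower part. In wild type at 37 °C the 7 transporters had log2 TE values of 1.45 to 2.48, at percentile 93.98 or above among all genes, with *HXT2* highest at percentile 99.4. *SNF3* stood at -1.0 (percentile 14.5) and *RGT2* at -2.34 (percentile 2.58). At 15 °C wild-type TE of the transporters ran from 0.43 for *HXT1* (percentile 74.2) to 1.48 for *HXT6* (percentile 97.8), and that of *SNF3* and *RGT2* stood at -1.82 and -1.54. In *tif3*Δ at 37 °C the transporters lay between 0.58 (*HXT4*, percentile 70.1) and 1.8 (*HXT2*, percentile 96.7). In *tif3*Δ at 15 °C they lay between 1.1 (*HXT4*) and 1.9 (*HXT6*), all at percentile 90.9 or above. TE of 7 members, with *HXT6* and *HXT7* counted apart, was lower in *tif3*Δ at 37 °C and higher at 15 °C. Of all genes 47.4% were lower at 37 °C and 49.7% higher at 15 °C. The share with both signs was not counted, so the count of 7 has no matching share of all genes beside it. *RGT2* showed the opposite signs, and *HXT4* was lower at both. For *SNF3* and *RGT2* the counting intervals of the footprints at 15 °C were too wide to fix the sign of TE. At 37 °C the same held for *RGT2*, whose mRNA fold of 1.91 lay inside its footprint interval of 1.74-fold to 2.95-fold. The difference between the temperatures was not tested, because no single library is given.

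**Figure D3:**
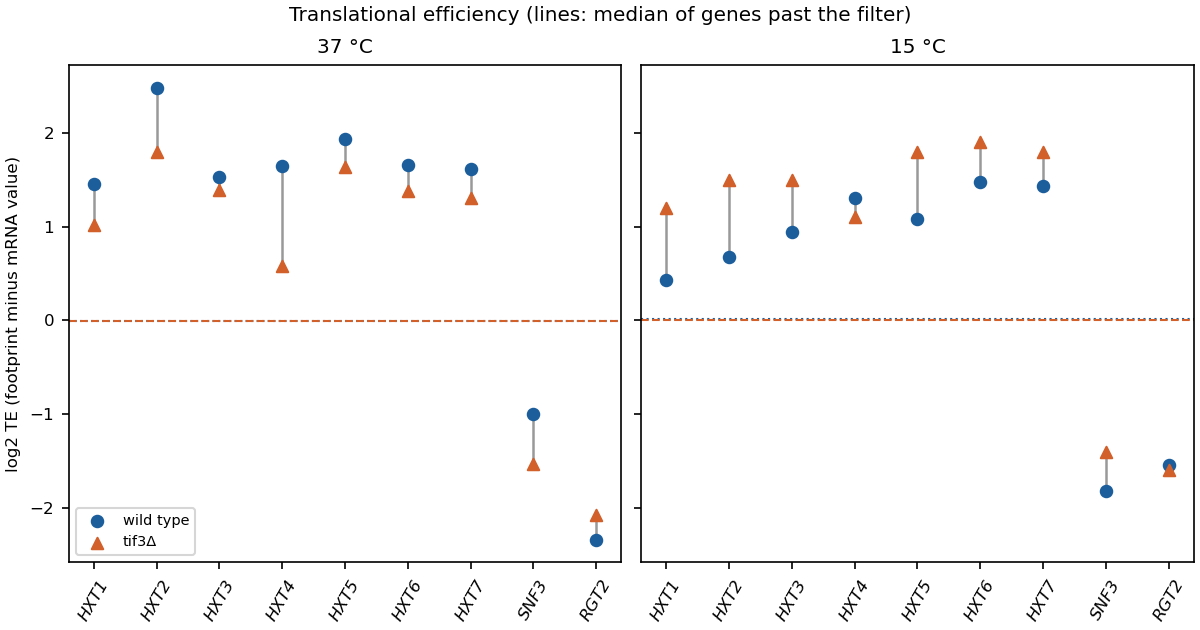
Log2 TE (y axis, footprint minus mRNA value) of the 9 genes (x axis) at 37 °C (left) and 15 °C (right), with circles for wild type, triangles for *tif3*Δ, grey lines joining the genotypes, and dotted and dashed lines at the median gene of wild type and *tif3*Δ. Transporters lie above the median lines and sensors below them in both panels, and the triangles lie below the circles for all 7 transporters at 37 °C and above them for 6 of the 7 at 15 °C.

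Summed over *HXT1* to *HXT7*, the transporters took 0.652% of the footprint values of all listed genes in wild type at 15 °C and 1.71% in *tif3*Δ, a 2.62-fold larger share. Their share of mRNA values was 0.456% and 0.729%, 1.60-fold larger. The sum itself was 1.90-fold higher in mRNA, a larger ratio than that of the shares, since the mRNA values of all listed genes also summed to more in *tif3*Δ. At 37 °C the share of footprints was 0.225% in wild type and 0.202% in *tif3*Δ, and that of mRNA 0.162% and 0.187%. How reads matching both *HXT6* and *HXT7* were assigned is not known, and any counted for both genes would be repeated in these sums.

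The make-up of this pool differed between the temperatures more than between the genotypes. Per kilobase of coding sequence, *HXT1* made up 41.4% of the transporter footprints in wild type at 37 °C and 42.1% in *tif3*Δ, but 12.3% and 11.1% at 15 °C. *HXT3* made up 20.5% and 23.8% at 37 °C, and 30.7% and 36.3% at 15 °C. *HXT6* and *HXT7* together gave 27.98% and 23.7% at 37 °C, and 39.3% and 33.7% at 15 °C, which would be too high if shared reads were counted for both. In mRNA *HXT2* made up 1.58% in wild type at 37 °C and 10.6% at 15 °C, and its wild-type mRNA stood at -1.8 log2 units relative to the median gene at 37 °C and at 2.9 at 15 °C. At 37 °C *HXT4* made up 2.97% of the mRNA pool in wild type against 5.87% in *tif3*Δ, and at 15 °C 7.06% against 11.3%. The temperatures were separate experiments with tables normalised separately, so temperature and experiment cannot be told apart.

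**Figure D4:**
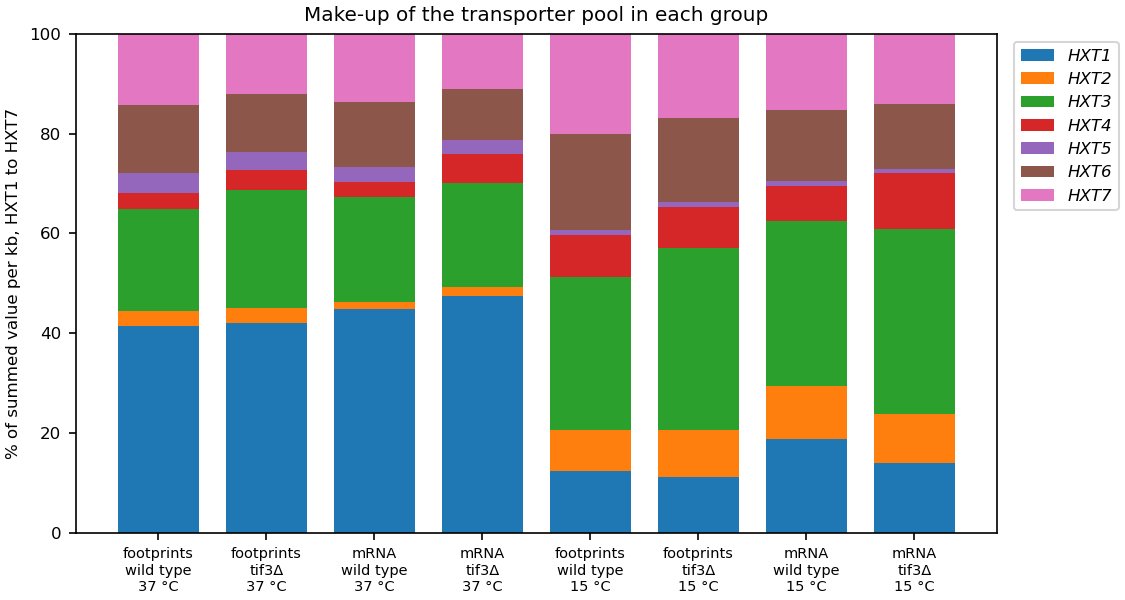
Share of each gene in the summed normalised value per kilobase of *HXT1* to *HXT7* (y axis, percent) in each of the 8 groups (x axis), with 1 colour per gene. *HXT1* forms the largest part in the 4 groups at 37 °C (41.4% to 47.4%) and *HXT3*, or *HXT6* and *HXT7* together, at 15 °C.

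Per kilobase, the order of the transporters in wild-type footprints at 37 °C was *HXT1*, *HXT3*, *HXT7*, *HXT6*, *HXT5*, *HXT4* and *HXT2*, followed by *SNF3* and *RGT2*. At 15 °C it was *HXT3*, *HXT7*, *HXT6*, *HXT1*, *HXT4*, *HXT2* and *HXT5*, followed by *RGT2* and *SNF3*. With no spread over libraries, neighbours in these orders with near values, such as *HXT4* and *HXT2* at 15 °C (8.49% and 8.26% of the pool), cannot be ranked.

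By position, *HXT3*, *HXT6* and *HXT7* are neighbours among the listed genes of chromosome IV and *HXT4*, *HXT1* and *HXT5* among those of chromosome VIII, in the RefSeq R64 annotation; *SNF3* and *RGT2* lie elsewhere on chromosome IV and *HXT2* on XIII. The other genes near the transporters, up to 2 listed genes on each side, did not show their footprint values. At 15 °C these 12 genes had a median log2 footprint difference of -0.39, with 3 at least 1.5-fold higher and 4 lower (16% and 20.7% of all genes), and the highest stood at 0.85, below the lowest transporter at 1.17.

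The genes with the most similar differences were found by distance over 4 values, footprints and mRNA at each temperature, among 4463 genes whose mean reached 32 throughout. Nearest to *HXT2* were *HXT3* (distance 0.40 log2 units) and *HXT1* (0.48), and nearest to *HXT5* were *HXT6* (0.25) and *HXT7* (0.28), against median distances to all genes of 1.98 and 1.75. *HXT4* was nearest to the repressor genes *MIG3* (0.80) and *MIG2* (0.97), and *HXT3* to YDR132C (0.13). *HXT1* was nearest to *PTK1* (0.20) and *ATR1* (0.26), and *RGT2* to *ATP15* and *POG1* (0.19 each). *SNF3* was below the minimum at 15 °C. Over so few values some genes lie near any member, and these distances are a description.

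The genes that pass the sensors' signal on were listed in part. Of 11 genes from casein kinase to the corepressors, 9 were in each table, and in *tif3*Δ at 15 °C the footprints of 2 were higher by at least 1.5-fold and those of 2 lower (median 0.30), sizes passed by 16% and 20.7% of all genes. The 2 higher ones were the corepressor genes. *MTH1* stood at log2 6.63 in wild type and 8.2 in *tif3*Δ, 2.99-fold more footprints and 2.40-fold more mRNA in the authors' deposited table. *STD1* stood at 6.17 and 7.5, 2.57-fold more footprints at 1.40-fold more mRNA in the authors' deposited table. The casein kinase gene *YCK2* had 1.92-fold fewer footprints in the authors' deposited table. At 37 °C footprints of 1 of the 9 were at least 1.5-fold higher and those of 2 lower, sizes passed by 12.1% and 13.2% of all genes. The higher one was *MTH1*, with 2.61-fold more footprints and 3.43-fold more mRNA in the authors' deposited table. The general corepressor genes *TUP1* and *SSN6* were lower there, by 2.30-fold and 1.62-fold in footprints in the authors' deposited table.

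Of 13 genes of glucose repression, all listed, 3 had footprints at least 1.5-fold higher at 15 °C and 3 lower (median 0.03), close to the 16% and 20.7% of all genes, so the counts set this list apart in neither direction. The higher ones were the repressor genes *MIG1*, *MIG2* and *MIG3*, at 2.03-fold, 2.58-fold and 2.46-fold in the authors' deposited table. The *MIG3* value comes from about 46 footprints in wild type against 37 in *tif3*Δ. Among the lower ones were *SIP1* (2.38-fold) and *GAL83* (2.03-fold) in the authors' deposited table, both subunits that direct the Snf1 kinase to its targets; for *SIP1* there were about 29 footprints in *tif3*Δ. At 37 °C none of the 13 was 1.5-fold apart in footprints, and *MIG2* mRNA was 2.13-fold higher in the authors' deposited table, with TE 1.85-fold lower. Of 11 further transporter genes of the family, *HXT9* and *HXT11* were listed, at 37 °C alone, with about 35 and 34 wild-type footprints. *HXT11* had 1.57-fold more footprints, where 12.1% of all genes were higher by 1.5-fold. TE differences were 0.20 for *HXT9* and 0.90 for *HXT11*, above 0 unlike those of *HXT1* to *HXT7* at 37 °C. Reads shared between *HXT9* and *HXT11* were not examined.

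**Figure D5:**
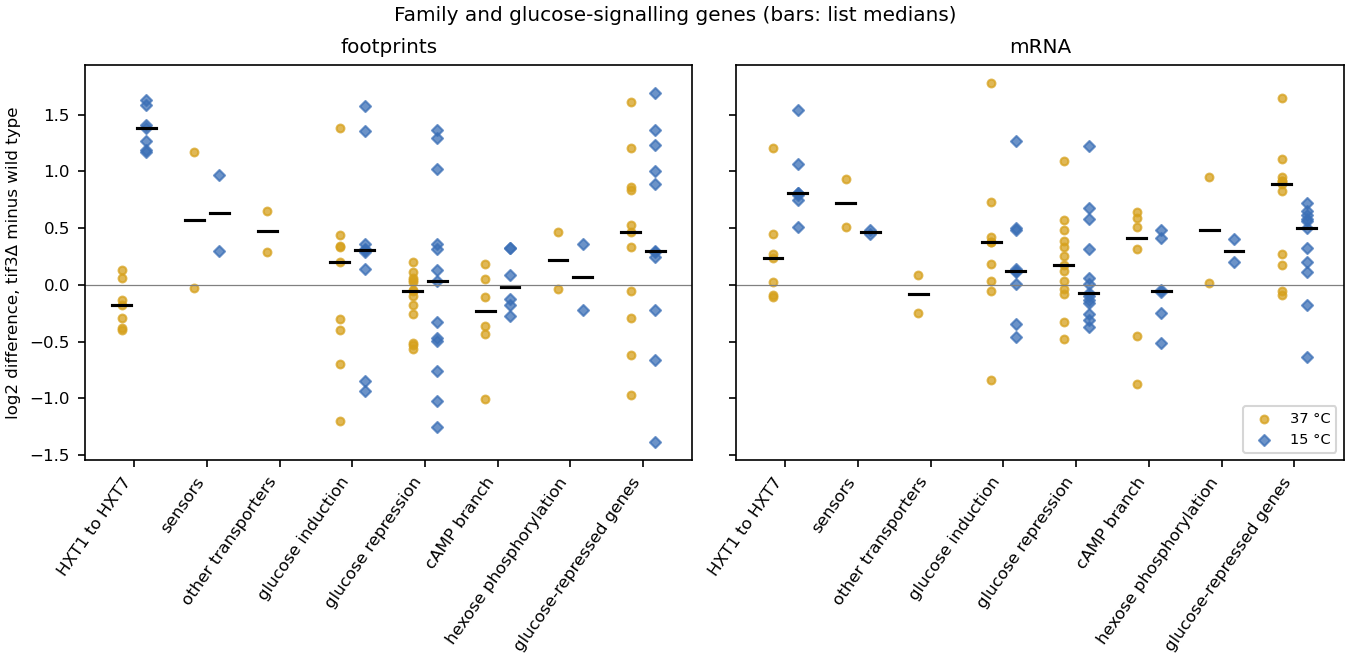
Log2 differences, *tif3*Δ minus wild type, in footprints (left) and mRNA (right) for the transporters, the sensors and the lists of glucose-signalling genes past the filter (x axis), with circles for 37 °C, diamonds for 15 °C and black bars for medians. The 15 °C diamonds of *HXT1* to *HXT7* lie between 1.17 and 1.63 in footprints, while those of the lists of glucose induction and glucose repression spread to both sides of 0, with medians of 0.30 and 0.03.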

How the data were processed

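The deposited tables, 1 per temperature, hold the authors' log2 normalised read values for 4 groups and the authors' log2 differences (*tif3*Δ minus wild type) in footprints, mRNA and TE. Those in footprints and mRNA match the group values, mostly rounded to 1 decimal, within 0.0996 log2 units, and that in TE is the footprint minus the mRNA difference. Per the submitters' processing notes, the build was sacCer2 and the tools included DESeq, TopHat2 2.0.7, Bowtie2 2.0.6 and CASAVA 1.8, with no role or order given. The sources used here do not say how the 2 libraries of a group were combined. A planned count test needs single libraries and was not run; values were set beside those of 5197 genes at 37 °C and 5012 at 15 °C (filter of 10, footprints in both genotypes, *TIF3* left out). Members, lists and the 1.5-fold size were chosen with earlier results of these data known. Named genes were all members, then pathway genes at least 1.5-fold apart with a mean of 32 or more, up to 20 by size. A few others are named for contrast, chosen after their values were seen. The value of 1 footprint, from the spacing of the lowest values, was 0.735 (37 °C) and 0.728 (15 °C) normalised units in wild type, and 1.08 and 2.18 in *tif3*Δ. Whole multiples (tolerance 0.15 steps, up to 6 steps) took in 97.5% and 85.7% of the low wild-type values and 100% and 84.8% of those of *tif3*Δ, so footprint numbers are approximate, and reads copied by PCR are not independent. Length trends were lowess fits (statsmodels 0.14.6, fraction 0.3) on RefSeq R64 coding lengths, and identities came from Biopython 1.88; the step and trend methods were tested on simulated data.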

Additional observations from a re-analysis of the deposited data

How the results depend on the processing

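Each member's differences, where it passed the filter, and the members' medians kept within 0.1 log2 units of the values given under no filter, a filter of 32, a pseudocount of 1, recomputed differences, centring on the median of all genes, and *HXT6* and *HXT7* as 1 gene, and no difference of 1.5-fold or more changed sign under any alternative. *SNF3* does not pass a filter of 32 at 15 °C, which leaves 7 in place of 8 members at least 1.5-fold apart in footprints. With *HXT6* and *HXT7* as 1 gene, 7 were apart in footprints and 5 in place of 6 in mRNA at 15 °C. Taking off the trend on coding length moved the median TE difference of the 9 members at 37 °C from -0.32 to -0.16, with 1 in place of 2 members at least 1.5-fold apart, and the median footprint difference at 15 °C from 1.27 to 1.39. The same step left 7 in place of 6 members at least 1.5-fold apart in mRNA at 15 °C, and 4 in place of 3 in TE. With 2-fold in place of 1.5-fold, 1 member in mRNA and 1 in TE were apart at 37 °C, and 2 in mRNA and 0 in TE at 15 °C. The members' median percentile at 37 °C without division by length was 74.9 in wild-type and 72.7 in *tif3*Δ footprints, and 32.6 and 59.9 in mRNA, against 67.4, 63.1, 15.2 and 48.9 per kilobase. No paired analysis was possible because each group is given as 1 value, and leaving out a replicate could not be run for the same reason. Depth limits the sensors at 15 °C, with about 14 to 43 footprints, and rounding to 1 decimal limits the printed mRNA levels.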

Other observations

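Genes repressed by glucose were a further list. Of 16, 11 were past the filter at each temperature. At 37 °C, with *MAL12* and *MAL32* counted apart, *tif3*Δ had at least 1.5-fold more of the mRNA for 7 (median log2 difference 0.89) and less for 0. At 15 °C it had more for 3 (median 0.50) and less for 1, *ADH2*. Over all genes 8.77% were higher and 8.87% lower by that size at 37 °C, and 6.78% higher and 5.85% lower at 15 °C. Their footprints were at least 1.5-fold higher for 4 and lower for 2 at 37 °C, and higher for 5 and lower for 2 at 15 °C, against 12.1% and 13.2% of all genes at 37 °C and 16% and 20.7% at 15 °C. *CAT8*, an activator of gluconeogenic genes, had 2.15-fold more mRNA at 37 °C and 2.57-fold more footprints at 15 °C in the authors' deposited table. *PCK1*, of gluconeogenesis, had 3.05-fold more footprints at 37 °C in the authors' deposited table, from about 39 wild-type footprints. *GAL4*, the activator of galactose genes, had 3.14-fold more mRNA at 37 °C in the authors' deposited table, and the maltase genes *MAL12* and *MAL32*, which are near-identical and may share reads, 1.89-fold and 1.88-fold more. *ICL1*, of the glyoxylate cycle, had 2.00-fold more footprints at 15 °C in the authors' deposited table, about 39 and 26 footprints, and 1.96-fold fewer at 37 °C, about 26 and 9. *ADR1*, an activator of glucose-repressed genes, had 2.62-fold fewer footprints at 15 °C at 1.13-fold less mRNA in the authors' deposited table. The 2 genes of the list below 0 in mRNA at 37 °C were *ADH2* (1.04-fold less) and *SUC2* (1.06-fold less). Their wild-type mRNA stood at log2 12.5 and 9 there, against 9.4 for *HXK1*, 5.2 for *GAL4* and 5 for *MAL12* and *MAL32*. At 15 °C *ADH2* had 1.55-fold less mRNA and 1.58-fold fewer footprints.

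Hexose phosphorylation and the cAMP branch of glucose sensing were the last lists. The hexokinase genes *HXK2* and *HXK1* had footprint differences of 0.36 and -0.22 at 15 °C in the authors' deposited table, and *HXK1* had 1.93-fold more mRNA at 37 °C. None of the 6 cAMP genes was 1.5-fold apart in footprints or mRNA at 15 °C (footprint median -0.02). In TE 1 was higher and 1 lower, where 13.9% and 18.9% of all genes were. At 37 °C 2 of the 6 had at least 1.5-fold more mRNA in *tif3*Δ and 1 less (median 0.42), against 8.77% and 8.87% of all genes. Footprints were lower for 1 and TE for 2, where 13.2% and 11.1% of all genes were lower by that size. These counts over 6 genes were not tested. At 37 °C *RAS1* had 2.01-fold fewer footprints and the adenylate cyclase gene *CYR1* 2.04-fold lower TE in the authors' deposited table.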
